A study of Mus musculus with 15 samples.

Results

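The unfolded protein response genes examined here were Xbp1, Hspa5, Ddit3, Atf4, Atf6, Ern1, Pdia4, Sdf2l1, Dnajb9 and Hsp90b1, chosen by symbol with earlier results of these data known. All 10 were found in both expression tables, among 16470 genes in the table of vehicle-treated (DMSO) libraries and 16428 in the table of ibrutinib-treated libraries, of which 15869 were in both. The libraries were made from leukemic spleens of Eμ-TCL1 mice, a C57BL/6 model of chronic lymphocytic leukemia in which the Eμ enhancer drives the TCL1 oncogene in B-cells, and of Eμ-TCL1;p53R172H/+ mice, which carry the same transgene and a mutant allele of Trp53. Spleens were disrupted mechanically with no sort named in the sources used here, and the cells were held in culture for 24 h with DMSO or with 5 μM ibrutinib, an inhibitor of the B-cell kinase BTK. The DMSO table held 3 Eμ-TCL1 libraries (replicates 2, 3 and 4) and 5 Eμ-TCL1;p53R172H/+ libraries (replicates 1 to 5), and the ibrutinib table held 3 Eμ-TCL1 libraries (replicates 1, 3 and 4) and 4 Eμ-TCL1;p53R172H/+ libraries (replicates 1, 3, 4 and 5). The age of the mice used for these libraries was not given in the sources used here.

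The unfolded protein response is the program by which a cell adjusts to misfolded protein in the endoplasmic reticulum (ER). Its sensors sit in the ER membrane: IRE1, encoded by Ern1, splices the mRNA of the transcription factor XBP1, ATF6 is cut to release a transcription factor, and PERK slows translation while favoring that of ATF4, which induces Ddit3 (CHOP). XBP1 and ATF6 raise chaperones such as BiP (Hspa5) and GRP94 (Hsp90b1), and in the B-cell lineage XBP1 is best known for its part in the secretory capacity of plasma cells. The tables give 1 value per gene, so the spliced and unspliced forms of Xbp1 and the cleavage of ATF6 were not measured.

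Values are read counts scaled by the authors to the size of each library (normalized CPM), with factors of its own for each table, so genotypes were compared within a table, and levels in DMSO and in ibrutinib are only set side by side. Column sums lay between 855661 and 1243999 in DMSO and between 756625 and 1359650 in ibrutinib, which follows from the scaling, and the depth of each library is unknown. Some libraries stood apart. Replicates 1 and 2 of Eμ-TCL1;p53R172H/+ in DMSO and its replicate 1 in ibrutinib had sums over 8 B-cell markers of 262.4, 253.6 and 64.7 and sums over 9 T-cell markers of 2251.6, 2618.3 and 1454.5. These 3 are called the T-cell-rich libraries. In Eμ-TCL1 replicate 2 in DMSO and replicate 1 in ibrutinib, the myeloid-rich libraries, 8 myeloid markers summed to 28933.9 and 20537.3 and the B-cell markers to 526.6 and 428.6. In the same 2 libraries 7 erythroid markers summed to 17886.6 and 15474.6, against at most 264 in every other library. Fits without the myeloid-rich libraries therefore leave out these erythroid transcripts as well, and the 2 kinds of content were not told apart. The other 10 libraries had B-cell sums from 546.5 to 5865.6. The lowest of these, replicate 3 of Eμ-TCL1;p53R172H/+ in ibrutinib, had a higher T-cell sum, 845.2. With ibrutinib, the T-cell sum was at least 430.6 in every Eμ-TCL1;p53R172H/+ library. It was at most 363.2 in every Eμ-TCL1 library of that table. Ibrutinib fits without the T-cell-rich library therefore still hold a genotype difference in T-cell markers, and its part in them was not tested. Xist was at least 868.7 in all 6 Eμ-TCL1 libraries, whereas 6 of the 9 Eμ-TCL1;p53R172H/+ libraries had Xist of at most 1.2 and the Y-linked Ddx3y of at least 75.1, so sex and genotype are in part confounded. In Eμ-TCL1;p53R172H/+ replicate 3, Xist stood at 1491.3 in DMSO but at 1 in ibrutinib, and Ddx3y at 0.1 and 82.1, so the libraries with that number differ in sex between the tables. Trp53 lay between 26.0 and 52.3 in Eμ-TCL1 and between 52.1 and 67.0 in Eμ-TCL1;p53R172H/+ in DMSO, and the value does not separate the mutant allele from the wild-type allele. In bulk RNA of this kind, fewer cells of a type and less RNA per cell cannot be told apart. The labels number the libraries without saying that each came from a separate mouse, so p-values measure the spread between these libraries.

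The ER stress response element, CCAAT and CCACG with 9 bases between them, is the best known site through which ATF6 and XBP1 act on chaperone genes. Promoters from 250 bases before to 50 after the start were taken from RefSeq (GRCm38.p6), and were found for 9 of the 10 genes. Atf6 had no entry. Searched on both strands, the element was in 39 of 32851 promoters (0.119%), and 2 of the 9 held it, those of Hspa5 and Hsp90b1. Their 250 bases before the start are shown because these are the chaperone genes in which the letters of the element were present, with CCAAT and CCACG, or their reverse complements CGTGG and ATTGG, in capitals. The Hspa5 stretch is chr2:34771840-34772089 on the plus strand, with the element starting 65 bases before the start, and the Hsp90b1 stretch is chr10:86705445-86705694 on the minus strand, with elements starting 212 and 107 bases before it.
Hspa5: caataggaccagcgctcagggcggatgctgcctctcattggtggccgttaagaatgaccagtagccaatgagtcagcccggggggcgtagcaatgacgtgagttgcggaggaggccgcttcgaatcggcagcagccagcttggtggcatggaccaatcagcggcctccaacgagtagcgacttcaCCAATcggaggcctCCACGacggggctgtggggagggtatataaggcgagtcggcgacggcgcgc
Hsp90b1: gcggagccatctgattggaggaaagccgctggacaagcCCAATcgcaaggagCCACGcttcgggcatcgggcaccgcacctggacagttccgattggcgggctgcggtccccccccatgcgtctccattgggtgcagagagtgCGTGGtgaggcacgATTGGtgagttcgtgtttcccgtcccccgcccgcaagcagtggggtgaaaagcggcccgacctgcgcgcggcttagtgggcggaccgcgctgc
The second ER stress element ATTGGNCCACG (0.0365% of all promoters), the XBP1 element TGACGTGG (0.676%) and the C/EBP-ATF element TGATGNAA (3.97%), which ATF4 and CHOP bind, were in 0 of the 9, so no 2 of the motifs overlapped. A match is a run of letters and not a measured site, and the absence of a match holds for these letters in this window.

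Most of the 10 genes were lower by sign in Eμ-TCL1;p53R172H/+ in both tables, but none passed the adjusted threshold of 0.05 in either. At an unadjusted p under 0.05 in limma, Xbp1 and Sdf2l1 were lower in both tables and Ddit3 was higher in DMSO. In DMSO, 0 of the 10 genes passed in limma, where 0.0121% of all 16470 genes did. At an unadjusted p under 0.05 there were 4 of 10, against 8.17% of all genes. Of these 4, Xbp1, Ern1 and Sdf2l1 were lower in Eμ-TCL1;p53R172H/+ (4.65% of all genes) and Ddit3 was higher (3.52% of all genes). By sign alone 8 genes were lower and 2 higher, with a median log2 difference of -0.75 against 0.04 over all genes. In ibrutinib, 0 of the 10 passed in limma, as did 0% of all genes, with 3 of 10 at an unadjusted p under 0.05, against 12% of all genes. These were Xbp1, Hspa5 and Sdf2l1, all lower in Eμ-TCL1;p53R172H/+ (6.32% of all genes), while none of the 10 was higher (5.69% of all genes). By sign 9 were lower and 1 higher, with a median of -0.95 against -0.05 over all genes. Throughout, log2 differences are Eμ-TCL1;p53R172H/+ minus Eμ-TCL1 on the log2(value + 1) scale, which understates differences of low genes.

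**Figure D1:**
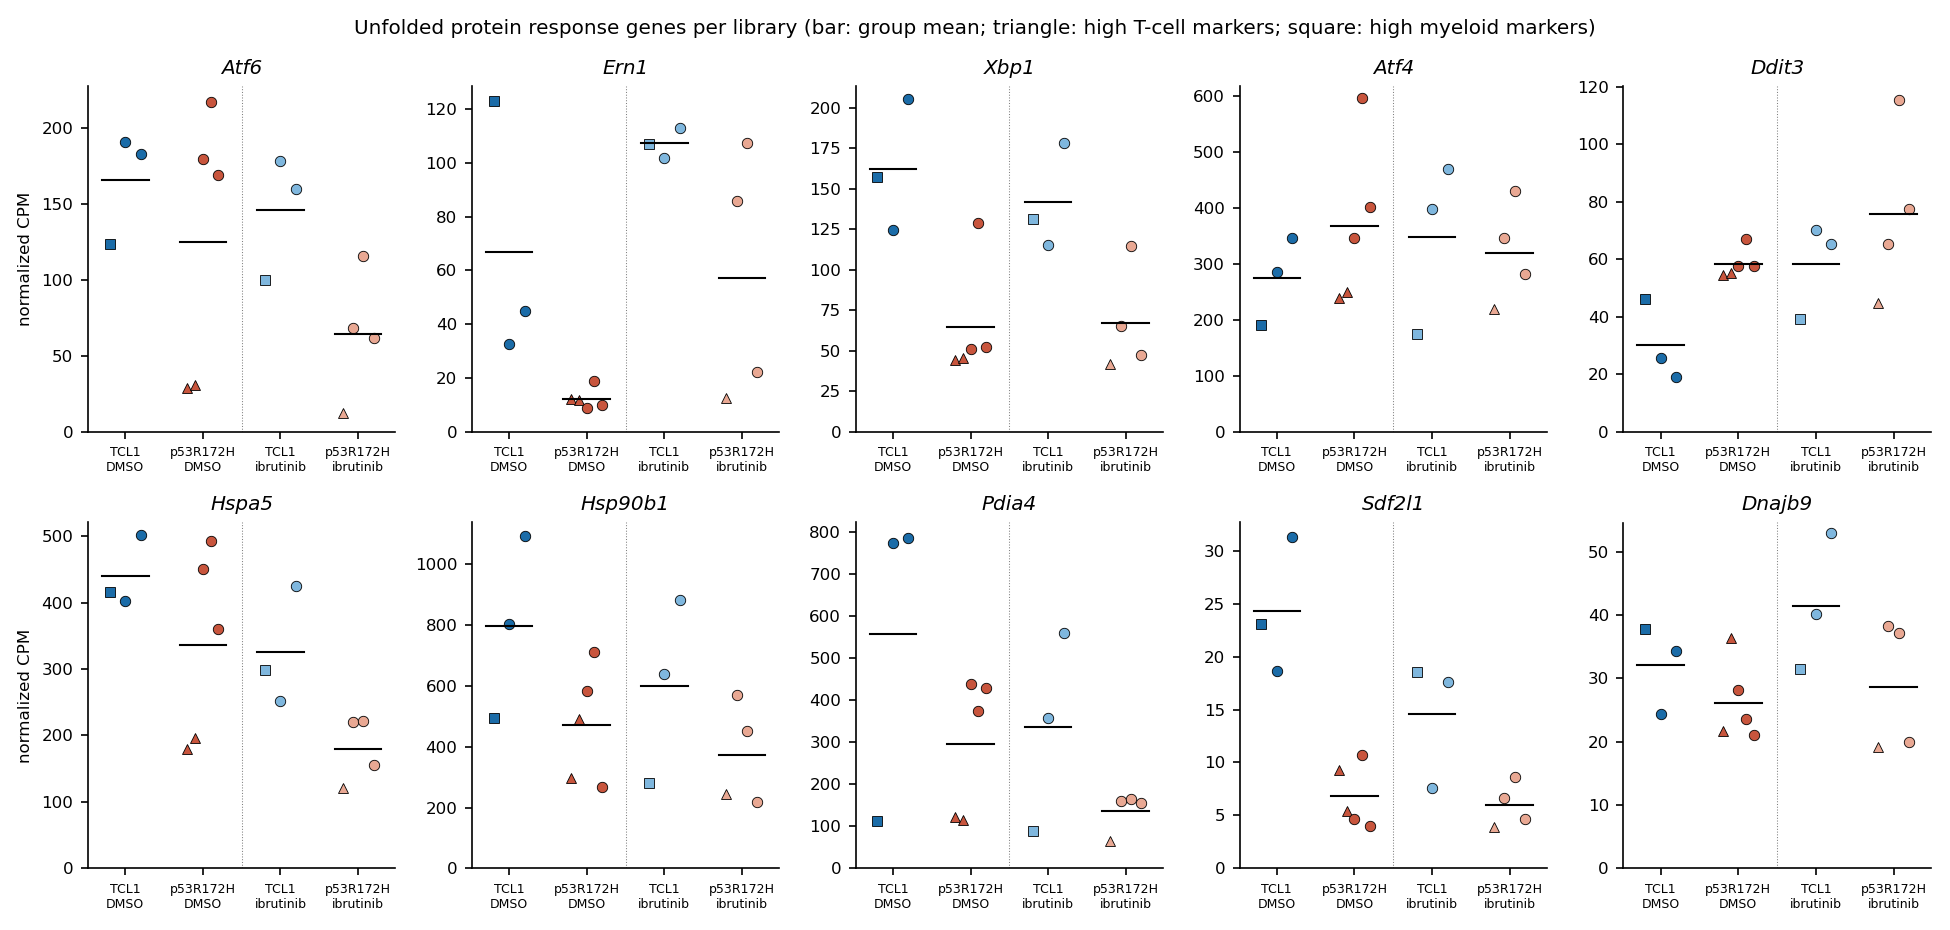
Normalized CPM (vertical axis, linear, from 0) of the 10 genes in each library, by genotype and treatment, with group means as bars, triangles for the T-cell-rich libraries and squares for the myeloid-rich libraries. The tables on either side of the dotted line were scaled separately. Sdf2l1 and Ern1 lie lower and Ddit3 higher in all 5 Eμ-TCL1;p53R172H/+ libraries than in all 3 Eμ-TCL1 libraries in DMSO.

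Among the sensors, Ern1 (ENSMUSG00000020715, chr11:106394650-106487852, minus strand, GRCm38) was low in every Eμ-TCL1;p53R172H/+ library in DMSO. Its values were 122.8, 32.6 and 44.8 in Eμ-TCL1 replicates 2, 3 and 4 and 12.1, 11.7, 9.0, 19 and 10 in Eμ-TCL1;p53R172H/+ replicates 1 to 5. The genotypes did not overlap, and the highest Eμ-TCL1 value came from the myeloid-rich library. The means were 66.7 ± 48.9 (SD, n = 3) and 12.4 ± 3.92 (SD, n = 5), a log2 difference of -2.15 (SE 0.44, limma, adjusted p = 0.276; two-sided exact permutation test, p = 0.0179, the smallest that 56 splits allow). Without the T-cell-rich libraries the log2 difference was -2.15, and without the myeloid-rich library as well it was -1.59. In ibrutinib the Eμ-TCL1 libraries, at 107.1, 101.6 and 112.8 in replicates 1, 3 and 4, were close together. The Eμ-TCL1;p53R172H/+ libraries were at 12.4, 85.8, 107.3 and 22.4 in replicates 1, 3, 4 and 5, so replicate 4 reached the Eμ-TCL1 range and replicates 1, 3 and 5 did not. The log2 difference there was -1.38 (SE 0.72, limma, adjusted p = 0.485; exact permutation test, p = 0.229), and without the T-cell-rich replicate 1 it was -0.84 (limma, adjusted p = 0.689).

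Atf6 (ENSMUSG00000026663, chr1:170704674-170867771, minus strand) encodes the sensor that is itself a transcription factor, and its lowest levels were in the libraries with the lowest B-cell markers. In DMSO it was 123.7, 190.8 and 183.1 in Eμ-TCL1 and 28.7, 30.6, 180.1, 217.7 and 169.0 in Eμ-TCL1;p53R172H/+, in the order of replicates given for Ern1. Only the T-cell-rich replicates 1 and 2 lay below the Eμ-TCL1 range. The log2 difference of -0.85 (SE 0.75, limma, adjusted p = 0.707; exact permutation test, p = 0.375) became 0.20 without these 2 libraries. In ibrutinib the values were 100.3, 178.7 and 159.8 in Eμ-TCL1 and 12.4, 68.4, 116.2 and 61.6 in Eμ-TCL1;p53R172H/+. The lowest was again the T-cell-rich library, but 2 of the other 3 also lay below every Eμ-TCL1 library. There the log2 difference was -1.48 (SE 0.69, limma, adjusted p = 0.446; exact permutation test, p = 0.114) with all libraries and -0.84 without the T-cell-rich one. Over all 15 libraries the 3 lowest Atf6 values, 12.4, 28.7 and 30.6, were those of the 3 libraries with the lowest B-cell sums. Above these the order did not hold throughout. In ibrutinib, the myeloid-rich Eμ-TCL1 replicate 1 had 100.3 with a B-cell sum of 428.6. Replicate 5 of Eμ-TCL1;p53R172H/+ had 61.6 with a sum of 1229.7. The part of cell content in the Atf6 difference was not tested beyond these fits.

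**Figure D2:**
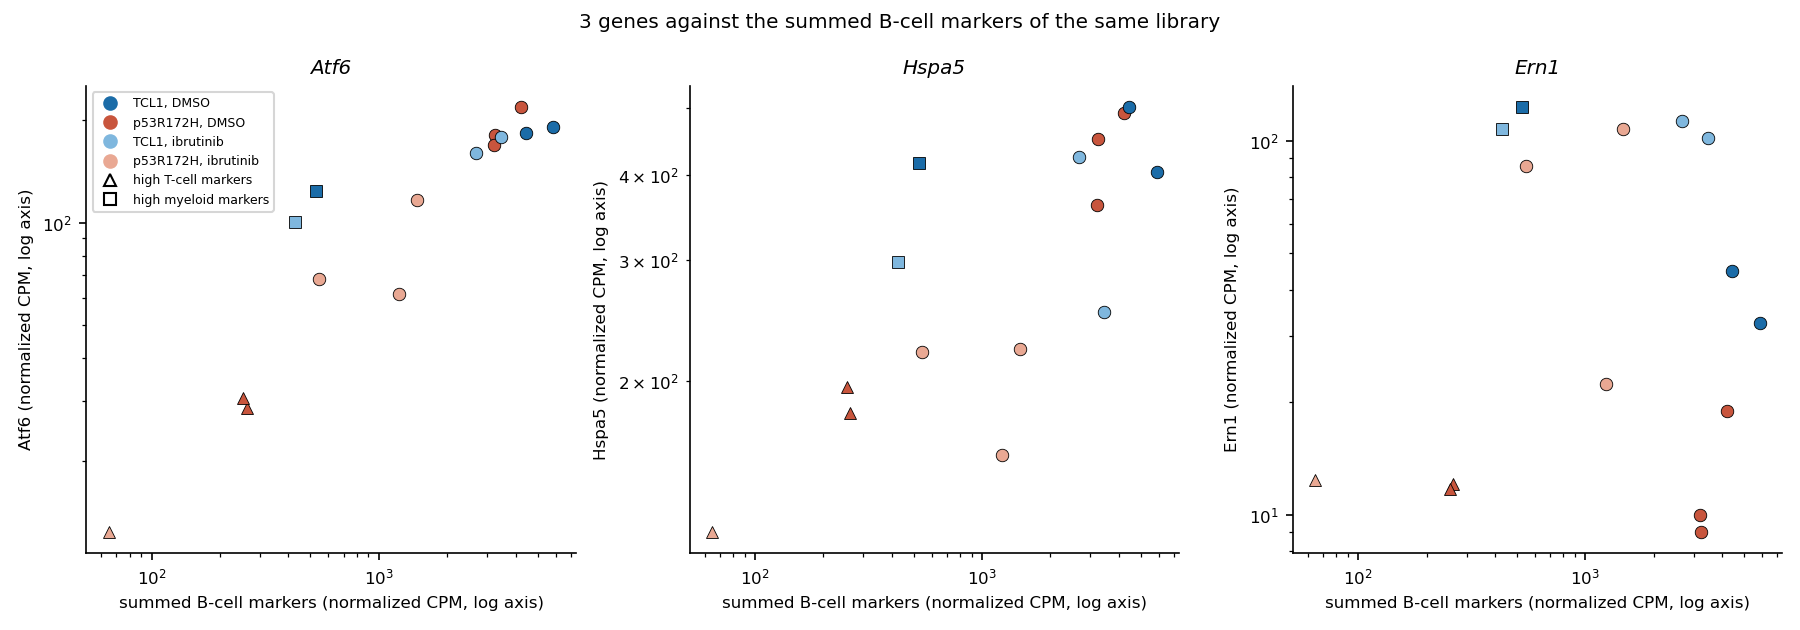
Atf6, Hspa5 and Ern1 (vertical, normalized CPM, log axis) against the summed B-cell markers of the same library (horizontal, normalized CPM, log axis), with genotype and treatment by color. The T-cell-rich libraries (triangles) sit at the lower left for Atf6, at 12.4, 28.7 and 30.6, whereas low Ern1 values occur at both ends of the B-cell axis.

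Xbp1 (ENSMUSG00000020484, chr11:5520659-5525893, plus strand), the transcription factor that acts below IRE1, was lower in Eμ-TCL1;p53R172H/+ in both tables by sign. In DMSO it was at 157.4, 124.4 and 205.3 in Eμ-TCL1 and at 44.6, 45.7, 51.3, 129.0 and 52.3 in Eμ-TCL1;p53R172H/+. A single library, replicate 4 of Eμ-TCL1;p53R172H/+, reached the Eμ-TCL1 range, and the other 4 were within 44.6 to 52.3. The means were 162 ± 40.7 (SD, n = 3) and 64.6 ± 36.2 (SD, n = 5), a log2 difference of -1.42 (SE 0.37, limma, adjusted p = 0.395; exact permutation test, p = 0.0357). Under ibrutinib, Xbp1 was 131.2, 115.4 and 178.1 in Eμ-TCL1 and 41.8, 65.6, 114.7 and 47.7 in Eμ-TCL1;p53R172H/+. No value of one genotype lay within the other's range, although replicate 4 of Eμ-TCL1;p53R172H/+ at 114.7 was just under the lowest Eμ-TCL1 value of 115.4. The means were 142 ± 32.6 (SD, n = 3) and 67.5 ± 33.1 (SD, n = 4), and the log2 difference was -1.15 (SE 0.36, limma, adjusted p = 0.319; exact permutation test, p = 0.0571, where 35 splits allow 0.0286 at the lowest). Without the T-cell-rich libraries the differences were -1.17 in DMSO and -0.96 in ibrutinib.

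Atf4 (ENSMUSG00000042406, chr15:80255184-80257541, plus strand), whose protein is made when PERK slows translation, did not separate the genotypes in either table. It was 191.2, 285.9 and 346.9 in Eμ-TCL1 and 238.9, 249.7, 347.6, 597.6 and 402.9 in Eμ-TCL1;p53R172H/+ in DMSO, a log2 difference of 0.38 (SE 0.36, limma, adjusted p = 0.720; exact permutation test, p = 0.357). In ibrutinib it was 175.8, 398.6 and 470.5 against 220.3, 347.4, 430.6 and 282.7, a difference of -0.05 (SE 0.39, limma, adjusted p = 0.965; exact permutation test, p = 0.914). The sign in ibrutinib turned to 0.093 with quantile normalization and to 0.050 with libraries shifted to a common median. ATF4 is regulated mainly in translation, which mRNA levels do not show.

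Ddit3 (ENSMUSG00000025408, chr10:127290774-127296288, plus strand) encodes CHOP, the factor that links lasting ER stress to cell death, and it ran opposite to Xbp1 in DMSO. Eμ-TCL1 libraries were at 46.2, 25.6 and 19.1 and Eμ-TCL1;p53R172H/+ libraries at 54.4, 55.3, 57.6, 67.2 and 57.8. Every Eμ-TCL1;p53R172H/+ value was above every Eμ-TCL1 value, and the highest Eμ-TCL1 value came from the myeloid-rich library. The means were 30.3 ± 14.1 (SD, n = 3) and 58.5 ± 5.10 (SD, n = 5), a log2 difference of 1.02 (SE 0.28, limma, adjusted p = 0.417; exact permutation test, p = 0.0179). Without the myeloid-rich library the log2 difference was 1.36, with adjusted p = 0.0398 in limma. Ddit3 was 1 of 61 genes (0.37% of all genes) called in that fit and the single gene called as higher in Eμ-TCL1;p53R172H/+. The difference did not pass without the T-cell-rich libraries, at 1.07 (limma, adjusted p = 0.364). Nor did it pass without the T-cell-rich and myeloid-rich libraries, at 1.42 (limma, adjusted p = 0.0879). In ibrutinib the Eμ-TCL1 values were 39.1, 70.3 and 65.4 and the Eμ-TCL1;p53R172H/+ values 44.8, 65.3, 115.5 and 77.5. These overlapped, with means of 58.3 ± 16.8 (SD, n = 3) and 75.8 ± 29.7 (SD, n = 4) and a log2 difference of 0.34 (SE 0.35, limma, adjusted p = 0.679; exact permutation test, p = 0.371). That difference was 0.077 without the myeloid-rich library (limma, adjusted p = 0.942), 0.11 without replicate 4 of Eμ-TCL1;p53R172H/+ and 0.56 without the T-cell-rich library. On the annotation, 186 exonic bases of Ddit3 overlap other entries, Gm4189 and Mars on the other strand and a second Ddit3 entry on the same strand, and whether counting used strand was not given in the sources used here.

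Hspa5 (ENSMUSG00000026864, chr2:34771970-34777547, plus strand) encodes BiP, the main ER chaperone and the usual readout of the response, and its promoter is the first shown above. Its DMSO values were 415.8, 402.9 and 501.6 in Eμ-TCL1 and 179.3, 196.1, 451.3, 492.2 and 361.0 in Eμ-TCL1;p53R172H/+. As with Atf6, the 2 T-cell-rich libraries were the low ones, and the log2 difference of -0.50 (SE 0.39, limma, adjusted p = 0.667; exact permutation test, p = 0.268) was -0.02 without them. In ibrutinib Hspa5 was 298.5, 252.2 and 424.5 in Eμ-TCL1 and 120.3, 220.4, 222.4 and 156.0 in Eμ-TCL1;p53R172H/+. All 4 Eμ-TCL1;p53R172H/+ libraries lay below all 3 Eμ-TCL1 libraries, the T-cell-rich library lowest. The means were 325 ± 89.2 (SD, n = 3) and 180 ± 50.2 (SD, n = 4), a log2 difference of -0.86 (SE 0.29, limma, adjusted p = 0.343; exact permutation test, p = 0.0286), and it was -0.68 without the T-cell-rich library. B-cell sums differed in the same direction, at 428.6 to 3457.4 in Eμ-TCL1 and 64.7 to 1468.7 in Eμ-TCL1;p53R172H/+ in ibrutinib, and their part in the Hspa5 difference was not tested.

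Sdf2l1 (ENSMUSG00000022769, chr16:17130138-17132383, minus strand), a partner of BiP in the ER, had genotypes that did not overlap in DMSO. It was 23.1, 18.6 and 31.3 in Eμ-TCL1 and 9.3, 5.4, 4.7, 10.7 and 4.0 in Eμ-TCL1;p53R172H/+. The lowest Eμ-TCL1 library was above the highest Eμ-TCL1;p53R172H/+ library, and the T-cell-rich libraries were not the lowest there. The means were 24.3 ± 6.44 (SD, n = 3) and 6.82 ± 2.99 (SD, n = 5), a log2 difference of -1.75 (SE 0.37, limma, adjusted p = 0.285; exact permutation test, p = 0.0179). In ibrutinib the values were 18.5, 7.6 and 17.6 against 3.9, 6.6, 8.6 and 4.7. Replicate 3 of Eμ-TCL1 then lay within the range of the other genotype, and the T-cell-rich library was the lowest. The log2 difference was -1.12 (SE 0.38, limma, adjusted p = 0.343; exact permutation test, p = 0.0857), and it was -0.97 without the T-cell-rich library and -0.76 without the myeloid-rich library as well.

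Hsp90b1 (ENSMUSG00000020048, chr10:86690209-86705509, minus strand), the ER member of the HSP90 family, overlapped between genotypes in both tables. In DMSO it was 494.6, 802.4 and 1094.1 in Eμ-TCL1 and 298.7, 492.4, 583.8, 710.7 and 268.2 in Eμ-TCL1;p53R172H/+, a log2 difference of -0.78 (SE 0.42, limma, adjusted p = 0.645; exact permutation test, p = 0.125). In ibrutinib the values were 280.2, 640.1 and 881.9 against 245.4, 570.3, 453.3 and 218.7, a difference of -0.65 (SE 0.50, limma, adjusted p = 0.595; exact permutation test, p = 0.286). The myeloid-rich library was the lowest of the Eμ-TCL1 libraries in each table, and without it the ibrutinib difference was -1.13, against -0.30 without Eμ-TCL1 replicate 4. Of the 4032 exonic bases of Hsp90b1, 632 overlap 3 other entries, so reads of those could be part of its value.

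Pdia4 (ENSMUSG00000025823, chr6:47796141-47813430, minus strand), a disulfide isomerase, was low in the libraries that stood apart. It was 113.3, 773.7 and 787.3 in Eμ-TCL1 and 121.6, 115.3, 439.5, 375.2 and 430.3 in Eμ-TCL1;p53R172H/+ in DMSO. The myeloid-rich and both T-cell-rich libraries lay between 113.3 and 121.6, and the remaining 5 lay at 375.2 or above with the genotypes apart. Over all libraries the log2 difference was -0.71 (SE 0.77, limma, adjusted p = 0.755; exact permutation test, p = 0.5). It was 0.01 without the T-cell-rich libraries and -0.91 without the myeloid-rich library as well. Single libraries moved it too, to -1.63 without the myeloid-rich library alone (limma, adjusted p = 0.548), to -0.25 and -0.24 without Eμ-TCL1 replicates 3 and 4, and to -0.45 and -0.43 without either T-cell-rich library. In ibrutinib it was 89.9, 357.7 and 561.0 against 65.7, 159.8, 165.6 and 154.8, and again the library of each genotype that stood apart was its lowest. The log2 difference was -1.03 (SE 0.64, limma, adjusted p = 0.548; exact permutation test, p = 0.2), and -1.48 without those 2 libraries (limma, adjusted p = 0.0947, between 0.0947 and 0.743 over all alternatives). It was -1.80 without the myeloid-rich library alone and -0.48 without Eμ-TCL1 replicate 4.

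Dnajb9 (ENSMUSG00000014905, chr12:44205559-44210326, minus strand), an ER co-chaperone induced through XBP1, overlapped between genotypes in both tables. Its values were 37.8, 24.3 and 34.3 in Eμ-TCL1 and 21.6, 36.4, 28.2, 23.5 and 21.1 in Eμ-TCL1;p53R172H/+, a log2 difference of -0.29 (SE 0.26, limma, adjusted p = 0.705; exact permutation test, p = 0.25). In ibrutinib they were 31.4, 40.1 and 52.9 against 19.2, 38.3, 37.1 and 19.9, a difference of -0.56 (SE 0.32, limma, adjusted p = 0.522; exact permutation test, p = 0.229).

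Counted over the 10 genes, the genotypes did not overlap in DMSO with Eμ-TCL1;p53R172H/+ lower for 2 (Ern1 and Sdf2l1), against 2.93% of all genes, and higher for 1 (Ddit3), against 3.52%. In ibrutinib they did not overlap with Eμ-TCL1;p53R172H/+ lower for 2 (Xbp1 and Hspa5), against 5.97%, and higher for 0, against 6.68%. Library quality weights, which let limma give less weight to libraries that deviate, called 4 of the 10 genes in DMSO, where 4.88% of all genes were called. In that fit Xbp1 had a log2 difference of -1.61 (adjusted p = 0.0240), Ern1 of -1.88 (adjusted p = 0.00794), Sdf2l1 of -2.14 (adjusted p = 0.00910) and Ddit3 of 1.44 (adjusted p = 0.00431). These were the lowest adjusted p-values of the 17 alternative fits for each gene, and the highest was 0.760, with the replicate block. In ibrutinib the same weights called none of the 10, and Xbp1 had an adjusted p of 0.203 there. The signs of the 8 genes other than Atf6 and Pdia4 were kept in DMSO in all 17 alternative fits, whose settings included 2 other scalings.

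**Figure D3:**
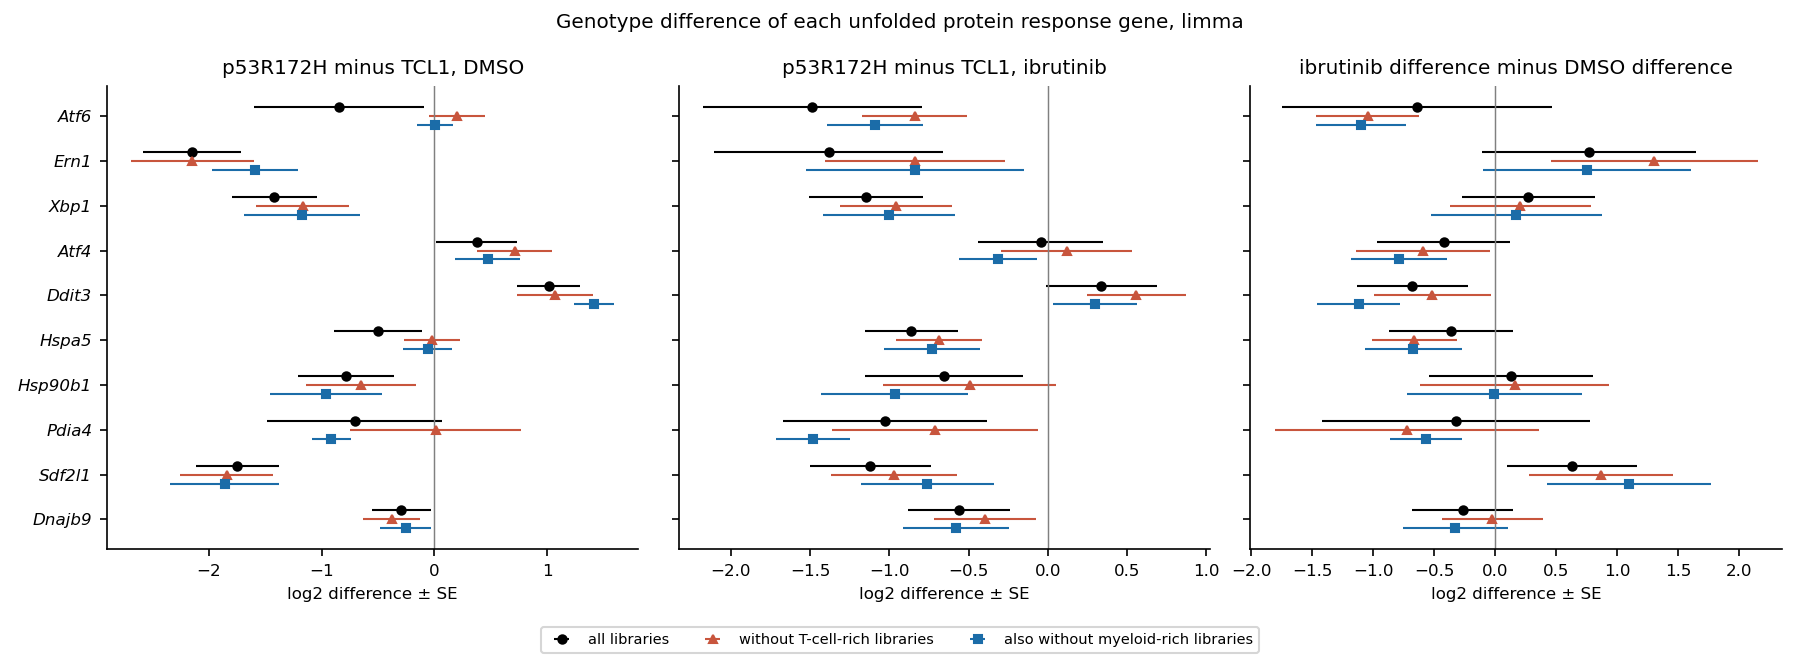
Log2 difference ± SE (horizontal axis) of each gene from limma, in DMSO, in ibrutinib, and as the difference between these 2, with all libraries (black circles), without the T-cell-rich libraries (red triangles) and without the myeloid-rich libraries as well (blue squares). Ern1, Sdf2l1 and Xbp1 lie left of 0 and Ddit3 right of 0 in DMSO in each of the 3 fits, whereas Atf6 moves from -0.85 to 0.20 and Pdia4 from -0.71 to 0.01 when the T-cell-rich libraries are left out.

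Of the 7 plasma cell markers, Igj ran with Xbp1, Ern1 and Sdf2l1 in DMSO, while Irf4 and Prdm1 did not. Igj, the joining chain of secreted immunoglobulin, was 203.2, 70.4 and 287.6 in Eμ-TCL1 and 11.8, 16.4, 6.7, 61.5 and 3.5 in Eμ-TCL1;p53R172H/+ in DMSO, and it was picked after its values were seen. Its single high Eμ-TCL1;p53R172H/+ library, replicate 4, was also the highest for Xbp1, Ern1 and Sdf2l1, though Sdf2l1 was 10.7 there and 9.3 in replicate 1. Irf4 and Prdm1, of the same list, had their highest DMSO values in that library, at 1148.1 and 143.1. In Eμ-TCL1 replicate 2 in DMSO, where Igj was 203.2, they were 64.6 and 35, and Mzb1 was 39. Sdc1, also listed, was 14.9, 5.6 and 21.3 in Eμ-TCL1 against 0.3, 0.3, 3.5, 8.4 and 4 in DMSO. In ibrutinib Igj was 126.3, 60.6 and 183.3 against 7.3, 184.1, 71.8 and 12.4, and the genotypes overlapped. The whole list did not separate the genotypes: its 7 markers summed to 358.2 to 1240.9 in Eμ-TCL1 and 97.2 to 1439.0 in Eμ-TCL1;p53R172H/+ in DMSO, and the 6 found in ibrutinib to 244.7 to 982.1 and 42.0 to 633.2, with none of them at 0 in all libraries of a group. The part of plasma cell content in the differences was not tested.

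A ratio of genes within a library does not depend on how that library was scaled, so it can be set beside the ratio in the other table. The ratio of Ddit3 to Xbp1 was 0.294, 0.206 and 0.0930 in Eμ-TCL1 replicates 2, 3 and 4 in DMSO and 1.22, 1.21, 1.12, 0.521 and 1.11 in Eμ-TCL1;p53R172H/+ replicates 1 to 5. In ibrutinib it was 0.298, 0.609 and 0.367 in Eμ-TCL1 and 1.07, 0.995, 1.01 and 1.62 in Eμ-TCL1;p53R172H/+. Within DMSO the ratio thus lay between 0.0930 and 0.294 in Eμ-TCL1 and between 0.521 and 1.22 in Eμ-TCL1;p53R172H/+. The 0.521 was that of replicate 4, the library with high Xbp1. Within ibrutinib the ranges were 0.298 to 0.609 and 0.995 to 1.62. The tables are not independent of each other where same-numbered libraries deviate together. Relative to Hspa5, Ddit3 had median ratios of 0.0635 (range 0.0381 to 0.111) in Eμ-TCL1 and 0.160 (0.128 to 0.303) in Eμ-TCL1;p53R172H/+ in DMSO, and of 0.154 (0.131 to 0.279) and 0.435 (0.296 to 0.519) in ibrutinib. In each table the genotypes did not overlap in either ratio. The 2 highest ratios of Ddit3 to Hspa5 in DMSO, 0.303 and 0.282, were those of the T-cell-rich libraries, where Hspa5 was low. How often other pairs of genes do not overlap was not computed. The ratio of Atf4 to Ddit3, by contrast, overlapped, with medians of 11.2 and 6.03 in DMSO and 5.67 and 4.32 in ibrutinib. These ratios were chosen after the values of the genes were seen and were not tested.

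**Figure D4:**
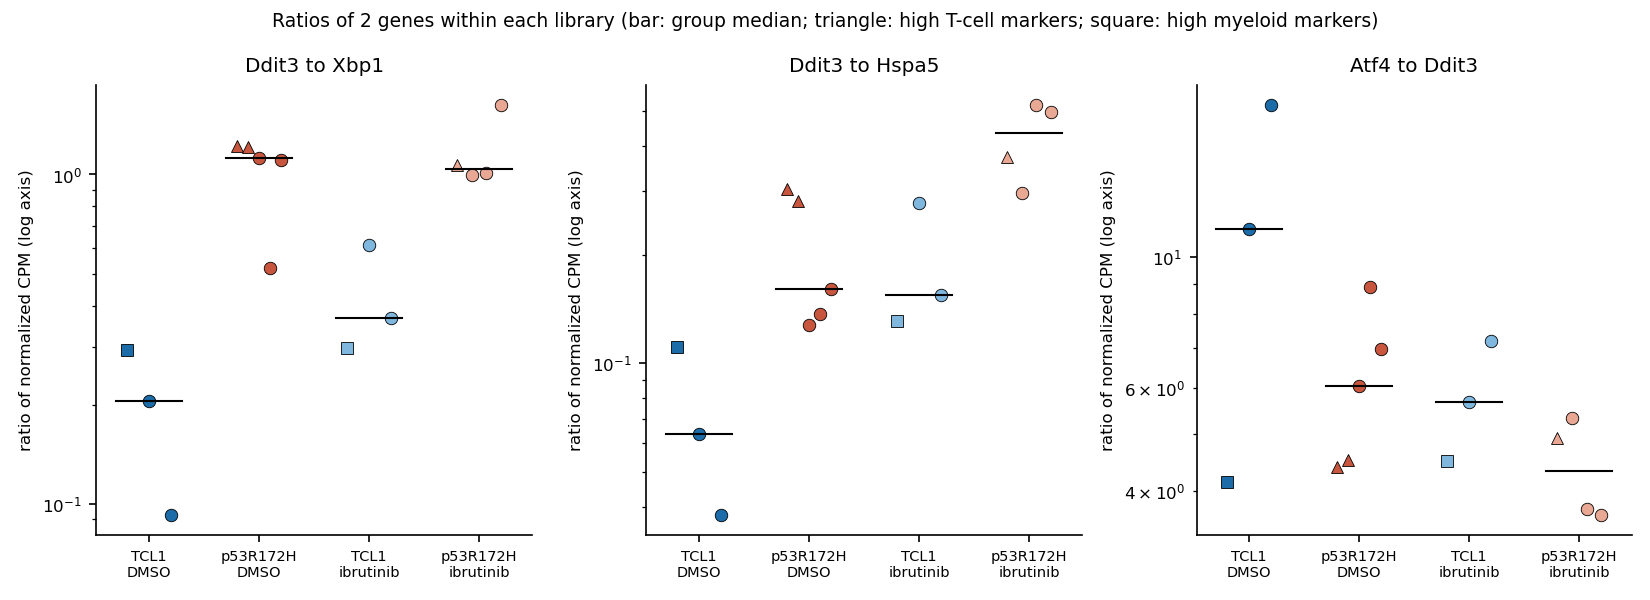
Ratio of normalized CPM (vertical, log axis) of Ddit3 to Xbp1, Ddit3 to Hspa5 and Atf4 to Ddit3 within each library, with group medians as bars. In DMSO the Ddit3 to Xbp1 ratio lies between 0.0930 and 0.294 in Eμ-TCL1 and between 0.521 and 1.22 in Eμ-TCL1;p53R172H/+. In ibrutinib it lies between 0.298 and 0.609 and between 0.995 and 1.62.

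Set side by side and untested, group means of 6 of the 10 genes (Xbp1, Hspa5, Atf6, Pdia4, Sdf2l1 and Hsp90b1) were highest in Eμ-TCL1 with DMSO, and 5 of these, all but Xbp1, were lowest in Eμ-TCL1;p53R172H/+ with ibrutinib. Ddit3 had the reverse order, lowest in Eμ-TCL1 with DMSO at 30.3 and highest in Eμ-TCL1;p53R172H/+ with ibrutinib at 75.8, with 58.5 in Eμ-TCL1;p53R172H/+ with DMSO and 58.3 in Eμ-TCL1 with ibrutinib. Ern1 was at 107 ± 5.60 (SD, n = 3) in Eμ-TCL1 with ibrutinib and 66.7 ± 48.9 (SD, n = 3) with DMSO, and at 57.0 ± 46.7 (SD, n = 4) and 12.4 ± 3.92 (SD, n = 5) in Eμ-TCL1;p53R172H/+.

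Levels can be compared between genes only per length. As normalized CPM per kb of exon, 3 folding genes and Atf4 led in Eμ-TCL1 with DMSO. Pdia4 was at 233 ± 161, Hsp90b1 at 198 ± 74.4, Atf4 at 116 ± 33.3 and Hspa5 at 104 ± 12.7 (SD, n = 3). The spreads of these 4 genes overlap, except that Hsp90b1 lay above Hspa5. Xbp1 came next, followed by Sdf2l1, Atf6 and Ddit3 between 17.7 and 22.0, Dnajb9 at 12.6 ± 2.75 and Ern1 at 8.17 ± 5.99. In Eμ-TCL1;p53R172H/+ with DMSO the same 4 genes led, with Atf4 first at 156 ± 61.8 (SD, n = 5), whereas Ddit3 at 34.1 ± 2.98 stood above Xbp1 at 19.9 ± 11.1, and Ern1 was last at 1.51 ± 0.480.

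Whether the genotype difference itself differed between DMSO and ibrutinib was asked with the interaction over all 15 libraries. In limma 0 of the 10 genes passed, as did 0% of the 15869 genes, and an unadjusted p under 0.05 was reached by 0 of the 10, against 0.523% of all genes. Ddit3 had an interaction of -0.68 on the log2 scale (SE 0.45), Ern1 of 0.77 (SE 0.88), Sdf2l1 of 0.63 (SE 0.53), Atf6 of -0.64 (SE 1.11) and Xbp1 of 0.27 (SE 0.55), each with adjusted p = 1 in limma. The other 5 lay between -0.42 (Atf4) and 0.13 (Hsp90b1). Without the T-cell-rich and myeloid-rich libraries Ddit3 was at -1.12 (adjusted p = 0.383) and Atf6 at -1.10 (adjusted p = 0.422). Over all alternatives these were the lowest adjusted p-values for the interaction of each gene, and the highest was 1. This model takes all libraries as independent, but libraries of 1 genotype with the same number in DMSO and ibrutinib deviated together in 5 of 6 pairs (correlations from 0.75 to 0.84) and not in the other, replicate 3 of Eμ-TCL1;p53R172H/+ (-0.11). The deviations are from group means that the T-cell-rich and myeloid-rich libraries shift. Pairs with different numbers were not compared, so these correlations cannot show that libraries with 1 number came from 1 mouse. With the replicate block, which lets same-numbered libraries of a genotype correlate, Ddit3 had an interaction of -1.05 (SE 0.32, limma, adjusted p = 0.936). It was the 1 gene of the 10 at an unadjusted p under 0.05 in that fit, against 4.98% of all genes. The block also ties the 2 libraries of replicate 3 of Eμ-TCL1;p53R172H/+, which differ in sex and so are not from 1 mouse. The block called 0 genes at the adjusted threshold.

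Whether the genes varied together over libraries was asked against Hspa5 within each table, with 18 relations tested by exact permutation and adjusted over all 18. In ibrutinib (n = 7), Xbp1 followed Hspa5 with Pearson's r = 0.94 (exact permutation p = 0.000198, adjusted p = 0.00357) and Spearman's rho = 1 (exact permutation p = 0.000397, adjusted p = 0.00714). Without the 2 libraries farthest from the Hspa5 median, Eμ-TCL1 replicate 4 and the T-cell-rich replicate 1, r was 0.89. Ern1 had r = 0.87 (exact permutation p = 0.00119, adjusted p = 0.0107) and rho = 0.89 (exact permutation p = 0.0123, adjusted p = 0.0738), and r was 0.89 without those 2. Sdf2l1 had r = 0.92 (exact permutation p = 0.00476, adjusted p = 0.0286) and rho = 0.93 (exact permutation p = 0.00675, adjusted p = 0.0607), and r was 0.88 without them. Dnajb9 had r = 0.89 (exact permutation p = 0.0107, adjusted p = 0.0386) and rho = 0.75 (exact permutation p = 0.0663, adjusted p = 0.149), and r was 0.69 without them. Hspa5 did not overlap between genotypes in this table, so these relations include the genotype difference, and 3 and 4 libraries are too few to give them within a genotype. Ddit3 had r = 0.03 in ibrutinib (exact permutation p = 0.955, adjusted p = 0.955) and rho = -0.07 (exact permutation p = 0.906, adjusted p = 0.906). Atf6 had r = 0.83 (exact permutation p = 0.0171, adjusted p = 0.0512), and 0.61 without the 2 farthest libraries. Hsp90b1 had r = 0.74 (exact permutation p = 0.0609, adjusted p = 0.122), and 0.37 without them. Pdia4 had r = 0.70 (exact permutation p = 0.0683, adjusted p = 0.123), and -0.13 without them. Atf4 had r = 0.41 (exact permutation p = 0.362, adjusted p = 0.434), and -0.30 without them.

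In DMSO (n = 8) 1 relation passed, that of Atf6, and it rested on the T-cell-rich libraries. Atf6 had r = 0.97 (exact permutation p = 0.00717, adjusted p = 0.0323) and rho = 0.76 (exact permutation p = 0.0368, adjusted p = 0.0945), but r was 0.42 over the 6 other libraries. Xbp1 had r = 0.71 (exact permutation p = 0.0377, adjusted p = 0.0970) and rho = 0.81 (exact permutation p = 0.0218, adjusted p = 0.0945), with r = 0.53 over those 6. Hsp90b1, the other gene with the ER stress element in its promoter, had r = 0.62 (exact permutation p = 0.0933, adjusted p = 0.153) and rho = 0.79 (exact permutation p = 0.0279, adjusted p = 0.0945), with r = 0.80 over those 6. None of the other relations in DMSO passed the adjusted threshold.

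As a description over all 15 libraries, with each table centered on its own mean, the genes most like Hspa5 among 10054 genes with a mean value of at least 5 were Prdx4 (r = 0.95), which encodes the peroxiredoxin of the ER, Pacsin2 (r = 0.94), Nf1 (r = 0.94), Adam9 (r = 0.93) and Azin1 (r = 0.93). These libraries share their cell content and scaling across genes, so no p is given. Of the response genes, Atf6 ranked highest, at place 22 (r = 0.90), followed by Xbp1 at 213 (r = 0.81), Pdia4 at 666 and Hsp90b1 at 778. Ddit3 was far down, at place 5891 (r = -0.18).

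The other genes of the pathway were taken as 6 lists and were lower in Eμ-TCL1;p53R172H/+ more often by sign than higher, with none passing in limma. In DMSO, of 73 measured, 0 passed the adjusted threshold, 7 were lower at an unadjusted p under 0.05 (against 4.65% of all genes) and none higher, and 45 were lower by sign, with a median log2 difference of -0.11 against 0.04 over all genes. In ibrutinib, of 72 measured, 0 passed, 13 were lower at an unadjusted p under 0.05 (against 6.32% of all genes) and none higher, and 65 were lower by sign, with a median of -0.45 against -0.05. The T-cell-rich and myeloid-rich libraries are in these counts, and their part in them was not tested.

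ER chaperones and folding enzymes other than the 10 genes were lower by sign in 15 of 18 in DMSO (median -0.39 against 0.04 over all genes) and in 18 of 18 in ibrutinib (median -0.65 against -0.05). At an unadjusted p under 0.05, 3 of 18 were lower in DMSO, against 4.65% of all genes, and 5 of 18 in ibrutinib, against 6.32%, with none adjusted. P4hb, the classical protein disulfide isomerase, was 281 ± 29.7 (SD, n = 3) and 178 ± 42.1 (SD, n = 5) in DMSO, a log2 difference of -0.69 (SE 0.24, limma, adjusted p = 0.550), and 251 ± 57.5 (SD, n = 3) and 127 ± 20.5 (SD, n = 4) in ibrutinib, a difference of -0.97 (SE 0.22, limma, adjusted p = 0.232). Its ranges did not overlap in either table. Calr, the lectin chaperone calreticulin, was 314 ± 74.8 (SD, n = 3) and 169 ± 14.4 (SD, n = 4) in ibrutinib, a difference of -0.86 (SE 0.21, limma, adjusted p = 0.238). Manf, an ER-resident secreted factor, differed by -0.76 in DMSO (SE 0.27, limma, adjusted p = 0.550). Sil1, the exchange factor of BiP, had an interaction of -0.88 (SE 0.38, limma, adjusted p = 1), with values of 18.6 and 20.4 in DMSO and 15.5 and 8.65 in ibrutinib for Eμ-TCL1 and Eμ-TCL1;p53R172H/+.

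Translocation and secretory genes were lower by sign in 10 of 13 in DMSO (median -0.35) and in 13 of 13 in ibrutinib (median -0.52). At an unadjusted p under 0.05, 1 of 13 was lower in DMSO, against 4.65% of all genes, and 6 of 13 in ibrutinib, against 6.32%, with none adjusted. Kdelr2, a receptor that returns chaperones to the ER, was 43.1 ± 5.97 (SD, n = 3) and 23.9 ± 2.28 (SD, n = 4) in ibrutinib, a log2 difference of -0.82 (SE 0.16, limma, adjusted p = 0.203), without overlap. In DMSO it was 45.6 ± 1.02 (SD, n = 3) and 33.7 ± 5.60 (SD, n = 5). Sec61a1, the channel of the translocon, had an interaction of -0.63 (SE 0.38, limma, adjusted p = 1). Genes of ER-associated degradation were lower by sign in 10 of 15 in DMSO (median -0.23) and in 13 of 15 in ibrutinib (median -0.28), with 2 of 15 and 1 of 15 lower at an unadjusted p under 0.05, against the same 4.65% and 6.32%, and none adjusted. The 4 other sensor genes measured had medians of 0.17 in DMSO and -0.17 in ibrutinib, and the 6 other transcription factors of -0.25 and -0.57, with none at an unadjusted p under 0.05.

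Of the feedback and ATF4 target genes, 12 of 17 were higher and 5 lower by sign in DMSO (median 0.27), and 3 of 16 were higher and 13 lower in ibrutinib (median -0.32). At an unadjusted p under 0.05, 1 was lower in each table, against 4.65% and 6.32% of all genes, and none was higher. Sars and Gars, which charge serine and glycine tRNAs, differed by 0.72 (SE 0.35, limma, adjusted p = 0.633) and 0.73 (SE 0.39, limma, adjusted p = 0.645) in DMSO, and Trib3, a pseudokinase induced by ATF4 and CHOP, by 0.95 (SE 0.55, limma, adjusted p = 0.645). The interaction of this list had a median of -0.63 against -0.07 over all genes, with 13 of 16 below 0 and none at an unadjusted p under 0.05. Asns, asparagine synthetase, the 1 gene of this list at an unadjusted p under 0.05 in DMSO, was at 65.5 ± 19.7 (SD, n = 3, range 51.7 to 88.0) in Eμ-TCL1 and 10.04 ± 15.5 (SD, n = 5, range 1.3 to 37.6) in Eμ-TCL1;p53R172H/+ in DMSO, a log2 difference of -3.42 (SE 0.85, limma, adjusted p = 0.375).

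**Figure D5:**
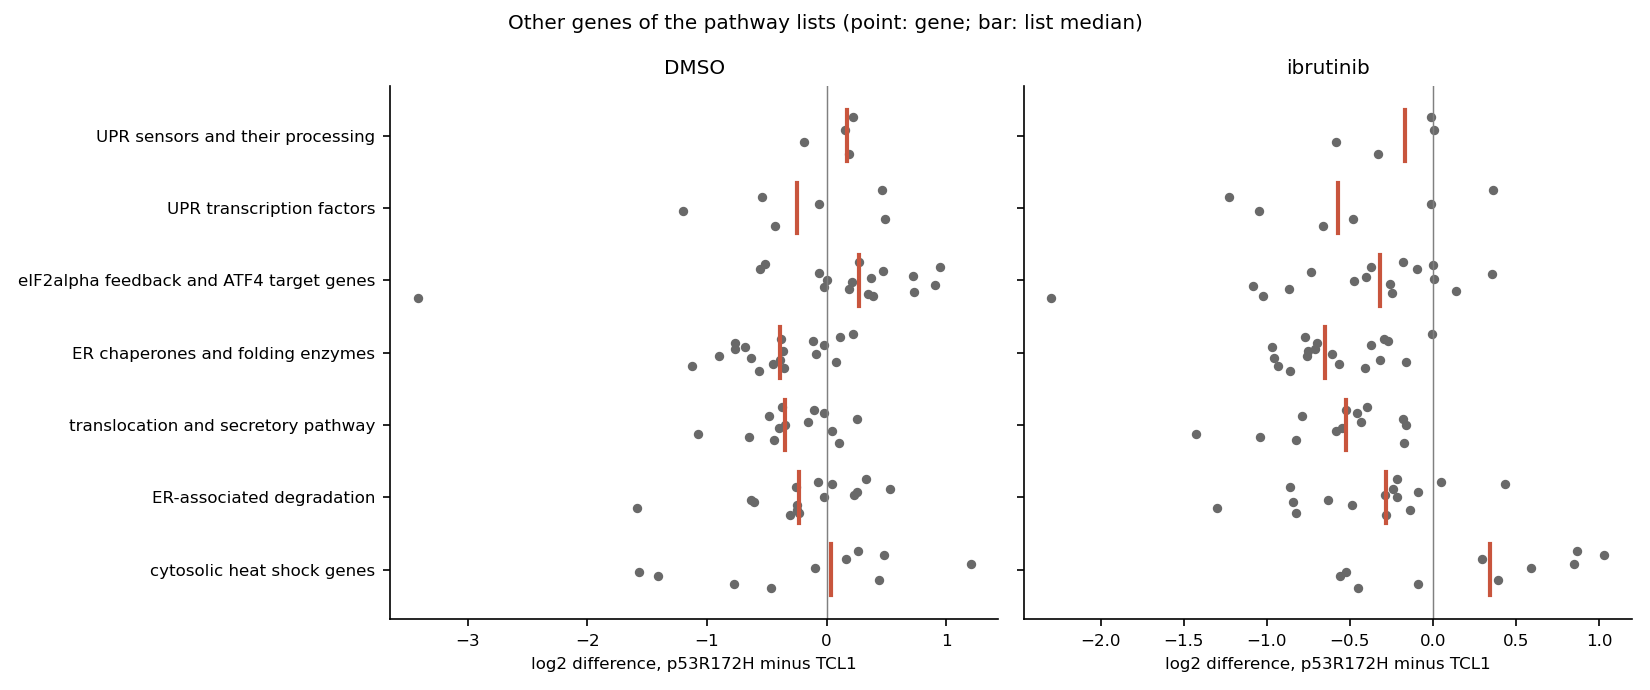
Log2 difference of each measured pathway gene other than the 10 (points) and the median of its list (red bars), Eμ-TCL1;p53R172H/+ minus Eμ-TCL1, in DMSO and in ibrutinib. The median of ER chaperones and folding enzymes lies at -0.39 in DMSO and -0.65 in ibrutinib, that of ATF4 target genes at 0.27 and -0.32, and Asns is the point at -3.42.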

How the data were processed

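RNA of 15 cultures was sequenced by the authors. Per the labels and the study's methods, reads were aligned with TopHat2 2.0.12, handled with SAMtools 0.1.19, counted per gene with HTSeq on GENCODE M2 (GRCm38), filtered for low counts and scaled with edgeR. The signal values, as deposited, are CPM (reads relative to an effective library size), in 1 table per treatment and rounded to 0.1. Whole reads could not be recovered, since all 49 steps of 0.1 below 5 occurred in every column, so no count test was run and depth is unknown. Rows without a symbol (191 and 192) stayed in the fits.

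Genotypes were compared within each table with limma 3.58.1 (R 4.3.3, lmFit, eBayes with trend) on log2(value + 1) over all genes, and p-values were adjusted by Benjamini-Hochberg (threshold 0.05). Genes in both tables entered the interaction. Single genes were also compared by two-sided exact permutation tests (20 tests, unadjusted). The fits were tested on simulated data with known changes. Gene positions and exonic lengths are from GENCODE M21 (GRCm38), promoters from RefSeq GRCm38.p6. Python 3.11.15 and matplotlib 3.10.9 were used for levels and figures.

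The 10 genes, the pathway and marker lists and the tests were chosen with earlier results of these data known. Named were all 10 genes, the 3 other pathway genes with the lowest p per direction in each fit, and the 5 genes outside the lists most like Hspa5. Same-numbered libraries of the 2 genotypes correlated from -0.20 to 0.29, so the numbers do not pair genotypes, and no block was used. Same-numbered libraries of the 2 treatments correlated from 0.75 to 0.84 in 5 of 6 pairs and at -0.11 in 1. Pairs with different numbers were not compared, and the group means include the T-cell-rich and myeloid-rich libraries, so this does not show shared mice. Alternatives were pseudocounts of 0.1 and 5, a mean of at least 5, 2 other scalings, library weights, a replicate block, each library left out, and no T-cell-rich libraries. Leaving out the myeloid-rich libraries as well was chosen after seeing the data.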

Additional observations from a re-analysis of the deposited data

Results flagged for a closer look

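Of 20 groups of 4 or 5 libraries tested for a value far from the others, 3 were flagged, where chance flags about 1 in 20. Xbp1 in Eμ-TCL1;p53R172H/+ replicate 4 in DMSO, at 129, stood apart from the other 4 libraries by 0.909 of the group's range (critical value 0.71). Ddit3 was also flagged in that library, at 67.2, with a gap of 0.734 of the range. Pdia4 in Eμ-TCL1;p53R172H/+ replicate 1 in ibrutinib, the T-cell-rich library, was low at 65.7, with a gap of 0.892 of the range (critical value 0.829).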

How the results depend on the processing

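The count of all genes called in DMSO was 2, and it became 6 with a pseudocount of 5, 803 (299 higher, 504 lower) with library quality weights, 0 with the replicate block, 1 without the T-cell-rich libraries and 12 without the myeloid-rich library as well. With each library left out in turn it ranged from 0 to 61: it was 0 when Eμ-TCL1 replicate 3 was left out, 61 for replicate 2, and 5 for replicate 4 of Eμ-TCL1;p53R172H/+. In ibrutinib it was 0, 28 with weights, and 0 to 24 with a library left out (24 for Eμ-TCL1 replicate 1 and 5 for replicate 5 of Eμ-TCL1;p53R172H/+), and the interaction called 0 genes in all settings run. Of the values of the 10 genes under the alternatives, 162 in DMSO, 154 in ibrutinib and 229 for the interaction kept their sign and side of the threshold, 5 in DMSO passed it, and 3, 6 and 11 reversed. Reversed in DMSO were Atf6 at 0.20 and Pdia4 at 0.011 without the T-cell-rich libraries, and Atf6 at 0.0070 without the myeloid-rich one as well. Atf4 in ibrutinib reversed to 0.093 with quantile normalization, 0.050 with a common median and 0.12 without the T-cell-rich library, and with a library left out it ranged from -0.48 to 0.23. For the interaction, libraries left out in turn gave Xbp1 from -0.020 to 0.55, Atf6 from -1.04 to 0.0042, Pdia4 from -1.09 to 0.60 and Hsp90b1 from -0.34 to 0.48, and Hsp90b1 was -0.0067 without the T-cell-rich and myeloid-rich libraries. Quantile normalization moved the median of all genes in ibrutinib from -0.05 to 0.07, and genes higher at an unadjusted p under 0.05 from 934 of 1973 to 1372 of 2068, and in DMSO from 580 of 1346 to 746 of 1373. With the replicate block, which the numbers do not warrant between genotypes, Xbp1 had a log2 difference of -1.23, Ern1 of -2.08, Sdf2l1 of -1.72 and Ddit3 of 1.05 in DMSO. The cause of these changes was not tested.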

Other observations

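Heat shock genes of the cytosol and, for Hspd1 and Hspe1, of the mitochondria answer to misfolded protein outside the ER. Of 10 measured, 5 were higher and 5 lower by sign in DMSO (median log2 difference 0.03), and 6 were higher and 4 lower in ibrutinib (median 0.34 against -0.05 over all genes), with none past the adjusted threshold in limma. At an unadjusted p under 0.05 none was called in DMSO, and in ibrutinib 2 were higher, against 5.69% of all genes, and 1 was lower, against 6.32%. Hsph1, an HSP110 co-chaperone, was 66.5 ± 9.09 (SD, n = 3, range 58.5 to 76.4) in Eμ-TCL1 and 126 ± 41.9 (SD, n = 4, range 103.6 to 188.3) in Eμ-TCL1;p53R172H/+ in ibrutinib, a log2 difference of 0.86 (SE 0.25, limma, adjusted p = 0.306). Hspe1, the mitochondrial HSP10, was 23.4 ± 11.7 (SD, n = 3) and 45.3 ± 8.39 (SD, n = 4), a difference of 1.03 (SE 0.35, limma, adjusted p = 0.343), and Hspa8 differed by 0.59 (SE 0.30, limma, adjusted p = 0.474). For the interaction, 8 of 10 were above 0 with a median of 0.58 against -0.07 over all genes. Those above 0 with the lowest p were Hsph1 at 0.60 (SE 0.32), Hspa8 at 0.68 (SE 0.38) and Hsp90aa1 at 0.68 (SE 0.48), each with adjusted p = 1 in limma. The largest was Hspa1b at 1.04 (SE 1.62).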
